A study of Bos taurus with 22 samples.

Results

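The genes described here handle long-chain fatty acids at the entry of the fat cell: CD36, the fatty acid transport proteins SLC27A1 and SLC27A4, the fatty acid binding proteins FABP4 and FABP5, and the long-chain acyl-CoA synthetases ACSL1, ACSL3 and ACSL4. They were chosen as the probe sets whose single gene symbol in the array annotation was one of these 8. This gave 12 of 24016 bovine probe sets, for 7 of the 8 genes, out of 9155 genes with a probe set of their own. ACSL4 was no probe set's single symbol and was not analysed here.

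Subcutaneous white adipose tissue from a dorsal site was taken from 11 first-calving Holstein heifers, which calved at 24 to 28 months of age. The postpartum group held 11 arrays from day 14 after calving, and the prepartum group held 11 arrays of the same cows, by the titles, from 30 days before calving. The labels name no drug treatment. The labels describe the rations before and after calving separately, so lactation and ration cannot be told apart.

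Fatty acids released from lipoproteins in the capillary cross the membrane of the fat cell with the help of CD36, a scavenger receptor that binds them at the cell surface, and of the SLC27 proteins, which also carry acyl-CoA synthetase activity. Inside the cell the small cytosolic FABP proteins bind them and carry them between membranes. The ACSL enzymes couple them to coenzyme A, which traps them in the cell and commits them to esterification or oxidation. In mouse and human fat cells CD36, FABP4, SLC27A1 and ACSL1 are classical targets of the nuclear receptor PPARG. In ruminants the fat depot takes up and makes fatty acids in pregnancy and releases them in early lactation.

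Arrays gave MAS5 signals, a linear brightness per probe set that the authors had scaled to the same trimmed mean on every array. The median bovine signal was 39.9 to 47.4. Of 12 adipocyte markers 10 were kept for testing, of which 2 (LEP and GPD1) fell after calving and none rose (median change -0.32), against 2.16% of all 6984 genes tested that fell and 1.55% that rose. ADIPOQ, which encodes adiponectin, had signals of 736 to 3144 in postpartum and 1339 to 3091 in prepartum arrays. Some arrays held high levels of markers of other tissues. The level of the skeletal muscle list, taken as the median log2 value of 10 kept markers (of 17 listed) relative to each gene's own median, reached 7.94 in the postpartum array of cow 384, 7.21 in the prepartum array labelled cow 387, 3.64 in the postpartum array of cow 386 and 2.63 in the prepartum array of cow 384. In the first 2 of these arrays the kept muscle markers were at the highest of their group, except MYH7 and CKM. MYH7 was at 782 and 580 there, and CKM was at the lowest of each group, 546 and 448. The epidermis list, of which 2 of 13 markers were kept, stayed at or below 0.16 in postpartum arrays. Its 4 highest prepartum levels were 3.15 in cow 341, 2.41 in cow 382, 1.71 in cow 330 and 1.41 in cow 331. Whether both arrays labelled cow 387 come from 1 animal is in doubt: deviations from the group means correlated at -0.09 between them and at 0.18 to 0.43 between the arrays of each other cow. In 5 of the 11 cows the postpartum array correlated best with its own prepartum array. In the other 6 (cows 330, 341, 346, 384, 386 and 387) another cow's prepartum array came higher, most of all for cow 384, at 0.64 with the prepartum array labelled cow 387 and 0.21 with its own. Results are given with and without cows 384 and 387. In a tissue sample, fewer cells of a type and less RNA per cell cannot be told apart.

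The comparison asked whether the transcripts for uptake, binding and activation differed between early lactation and late pregnancy. None of the 10 member probe sets that passed the filter on dim values was called by limma's paired test, which called 3.43% of the 14410 probe sets tested (1.44% as higher and 1.98% as lower postpartum). The lowest adjusted p was that of ACSL1, at 0.0786, whose log2 change was -0.48, and the 6 kept probe sets for CD36, SLC27A1, FABP4 and FABP5 all had positive changes of 0.08 to 0.28. The 4 kept probe sets for ACSL1 and ACSL3 had negative ones of -0.48 to -0.12, so that 4 of the 10 lay below 0, against 47.5% of all probe sets tested. The median change of the 10 was 0.12 log2 units, against 0.01 over all probe sets tested. Signals of the 2 groups overlapped for every member, and groups without overlap made up 0.0555% of all probe sets tested. An unadjusted p under 0.05 was reached by 1 of the 10 in limma, ACSL1, against 19.8% of all probe sets tested. At least 9 of 11 cows moved in one direction for 3 of the 10, against 21% of all probe sets.

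**Figure D1:**
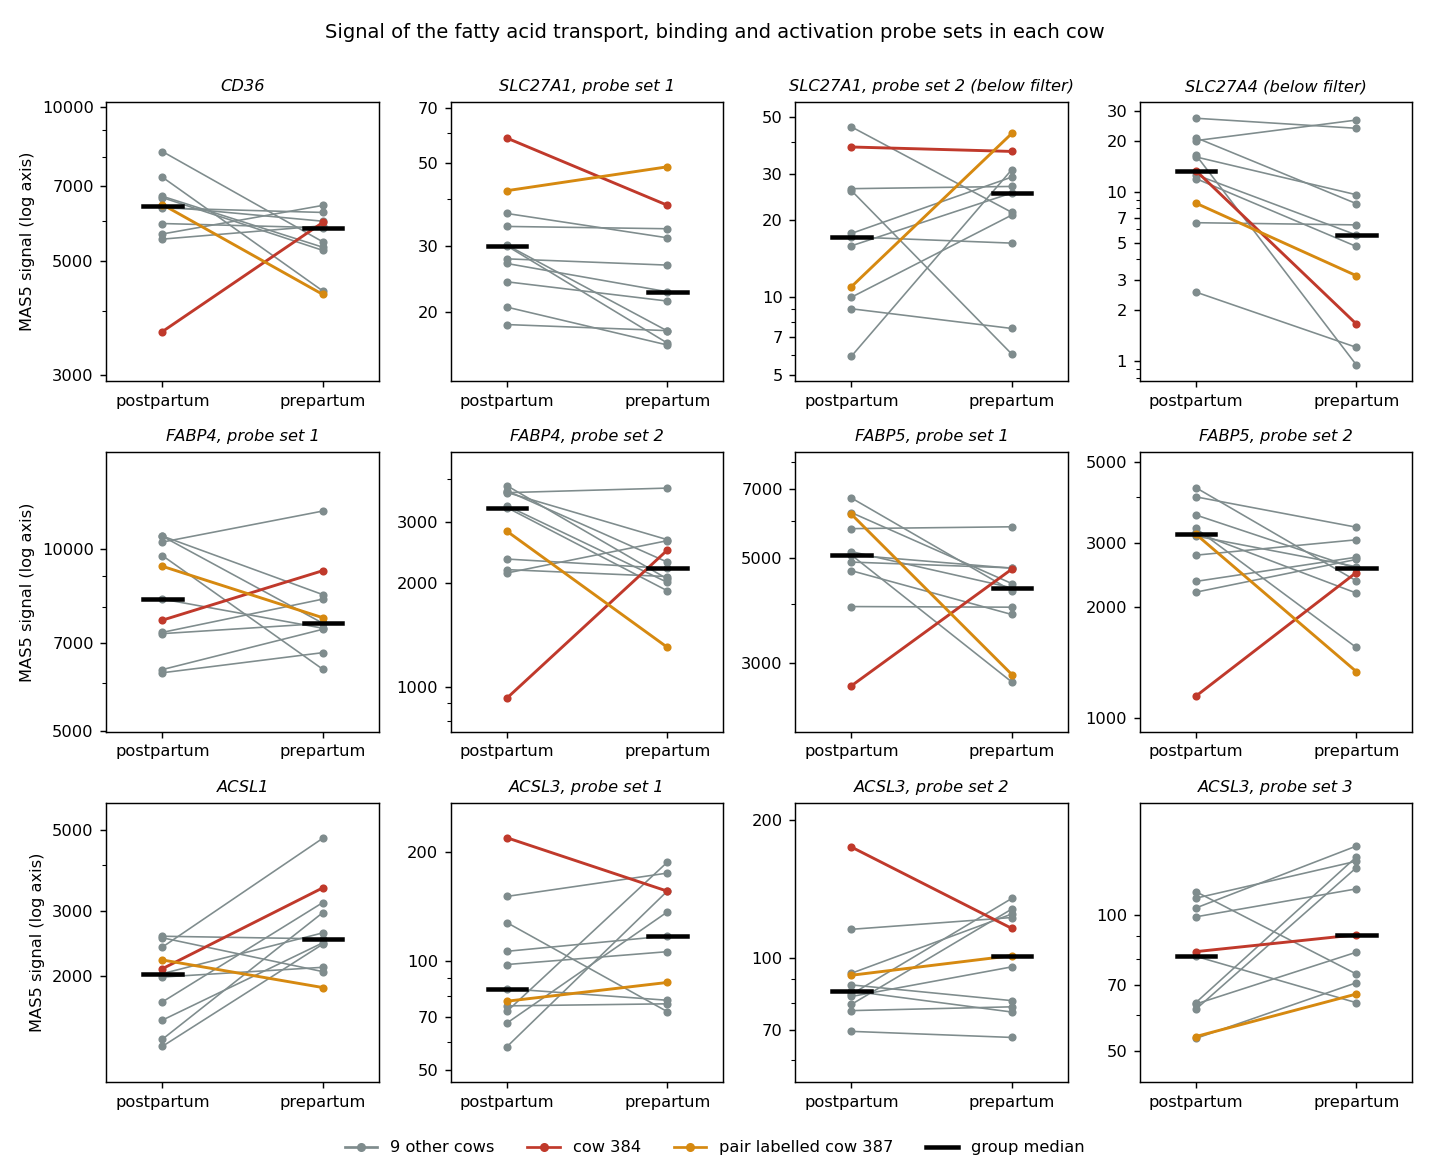
MAS5 signal of each of the 12 probe sets (log axis) in the postpartum and the prepartum array of 11 cows. Each line joins the arrays of 1 cow, black bars are group medians, and cow 384 and the pair labelled cow 387 are coloured. The groups overlap in every panel, and the postpartum array of cow 384 is lowest for CD36, FABP5 and FABP4 probe set 2 and highest for ACSL3 probe sets 1 and 2.

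CD36 (Entrez Gene identifier 281052) was measured by 1 probe set. Its signal was 3647 at the lowest, 6394 at the median and 8182 at the highest in postpartum arrays, against 4308, 5812 and 6426 in prepartum arrays. A total of 5 of the 11 postpartum arrays exceeded the highest prepartum array, and 1, that of cow 384, lay below the lowest. On the log2 scale CD36 averaged 12.59 ± 0.30 postpartum and 12.43 ± 0.19 prepartum (SD, n = 11 each). The paired change was 0.16 (SE 0.12, 95% confidence interval -0.09 to 0.41, limma adjusted p = 0.493), positive in 8 of 11 cows. Without cows 384 and 387 it was 0.21 (interval 0.00 to 0.41, adjusted p = 0.207), positive in 7 of 9 cows. Leaving out cow 384 alone gave 0.25 (adjusted p = 0.132), and leaving out cow 386 alone gave 0.10 (adjusted p = 0.689).

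The lowest CD36 signals were 3647 in the postpartum array of cow 384, 4308 in the prepartum array labelled cow 387 and 4375 in the prepartum array of cow 386, whose muscle list level was 0.08. The postpartum array of cow 386, at a muscle level of 3.64, had 7291. In the postpartum array of cow 384 the adipocyte list level was also at its lowest, at -1.68, as was the endothelial list level, at -0.86. CD36 is known from muscle and from capillary and macrophage cells as well as from fat cells. Of 12 endothelial markers 10 were kept, and 2 rose while none fell (median change 0.21), which were VWF (1.58-fold, adjusted p = 0.00392) and TEK (1.52-fold, adjusted p = 0.0130). The endothelial level ran from -0.86 to 0.43 postpartum and from -0.44 to 0.09 prepartum. With the muscle list level as a covariate the CD36 change was 0.17 (limma adjusted p = 0.395). How much of the CD36 signal came from muscle or capillary RNA was not tested.

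The SLC27 transporters were dim. SLC27A1 (FATP1, Entrez 513787, the transporter first found in fat cells) had 2 probe sets. The kept one had signals of 18.5, 30.0 and 58.1 (lowest, median, highest) postpartum, against 16.3, 22.6 and 48.7 prepartum. Its change of 0.21 (SE 0.11, interval -0.01 to 0.44, limma adjusted p = 0.276) was small but positive in 10 of 11 cows, and the pair labelled cow 387 was the exception. A two-sided exact sign-flip test over the 11 cows gave p = 0.0137 for this probe set alone, not adjusted for the 12 probe sets tested in this way. That test had a p under 0.05 for 2 of the 10 kept members, against 19.8% of all probe sets tested.

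The highest SLC27A1 values came from the arrays of cow 384, at 58.1 postpartum and 38.5 prepartum, and of the pair labelled cow 387, at 42.1 postpartum and 48.7 prepartum. In the other 9 cows its signal ran from 18.5 to 36.6 postpartum and from 16.3 to 33.3 prepartum. SLC27A1 also serves skeletal muscle. The muscle list level was 7.94 postpartum and 2.63 prepartum in cow 384, and -0.21 postpartum and 7.21 prepartum in the pair labelled cow 387. In the postpartum array of cow 386, at a muscle level of 3.64, SLC27A1 was at 30.1. The part of muscle RNA in the SLC27A1 values was not tested. The SLC27A1 change was 0.23 without cows 384 and 387 (adjusted p = 0.266), positive in 9 of 9, and 0.20 with the muscle list level as a covariate (adjusted p = 0.258).

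The second SLC27A1 probe set lay below the filter, with signals of 5.92, 17.1 and 45.7 postpartum, against 6.03, 25.4 and 43.1 prepartum. In a fit over all 24016 bovine probe sets its change was -0.21 (SE 0.23, interval -0.70 to 0.29, limma adjusted p = 0.744), so the probe sets of this gene did not share a sign. Its changes ran from -1.51 in cow 338 to 1.29 in cow 360.

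SLC27A4 (FATP4, Entrez 514427, known in mouse for its part in the gut and in the skin barrier) also lay below the filter. Its signals were 2.56, 13.4 and 27.2 postpartum, against 0.953, 5.57 and 26.6 prepartum. It was higher after calving in 10 of 11 cows, all but cow 360. The change was 0.53 (SE 0.16, interval 0.20 to 0.86, exact sign-flip p = 0.00684 for this probe set alone) and had a limma adjusted p of 0.115 over all 24016 probe sets, which did not pass. The size of this change depends on the constant added before the logarithm: it was 1.04 with 1 added and 0.21 with 32, and adjusted p = 0.116 and 0.129. At signals this dim the arrays give no firm level.

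FABP4 (Entrez 281759), the main fatty acid binding protein of the fat cell, had 2 kept probe sets. The brighter one had signals of 6246, 8259 and 10489 postpartum, against 6329, 7535 and 11532 prepartum. It averaged 13.03 ± 0.29 and 12.95 ± 0.23 on the log2 scale (SD, n = 11 each), postpartum and prepartum. The change was 0.08 (SE 0.09, interval -0.13 to 0.28, limma adjusted p = 0.699), positive in 5 of 11 cows, and the interval allows a fold of 0.917 to 1.21. It was 0.023 without cow 341, 0.037 without cow 386 and 0.014 after quantile normalization (adjusted p = 0.918, 0.875 and 0.922).

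The other FABP4 probe set had signals of 929, 3306 and 3825 postpartum, against 1303, 2205 and 3764 prepartum. Here the medians stood apart but the groups overlapped over most of their range. The lowest postpartum value was that of cow 384 and the lowest prepartum value was labelled cow 387. On the brighter probe set these arrays stood at 7625 and 7695, inside the range of the others. The change was 0.28 (SE 0.19, interval -0.12 to 0.68, limma adjusted p = 0.444), positive in 8 of 11 cows. Without cows 384 and 387 it was 0.37 (SE 0.12, interval 0.11 to 0.64, adjusted p = 0.0824). These cows moved it in opposite directions: it was 0.45 without cow 384 alone (adjusted p = 0.0518) and 0.19 without cow 387 alone (adjusted p = 0.590).

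FABP5 (Entrez 281760) is the epidermal fatty acid binding protein, which fat cells and macrophages also make. In the RefSeq gene order of the ARS-UCD2.0 assembly it lies near FABP4, with PMP2 and FABP9 between them. The first FABP5 probe set had signals of 2686, 5079 and 6704 postpartum, against 2736, 4328 and 5827 prepartum, and 3 postpartum arrays exceeded all prepartum ones. Its change was 0.28 (SE 0.14, interval -0.03 to 0.58, limma adjusted p = 0.300), positive in 9 of 11 cows.

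The second FABP5 probe set had signals of 1145, 3170 and 4247 postpartum, against 1336, 2556 and 3312 prepartum. Its change was 0.27 (SE 0.18, interval -0.11 to 0.65, adjusted p = 0.437), positive in 7 of 11 cows. Without cow 384 the FABP5 changes were 0.38 and 0.41 (adjusted p = 0.0537 and 0.103), without cow 387 they were 0.19 and 0.17 (adjusted p = 0.449 and 0.607), and without cows 384 and 387 they were 0.30 and 0.32 (adjusted p = 0.0770 and 0.165). For both probe sets the most negative change was that of cow 384 (-0.82 and -1.12) and the most positive that of the pair labelled cow 387 (1.12 and 1.24).

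FABP5 is also made by skin and immune cells. In the 4 prepartum arrays with raised keratin its first probe set stood at 4267 (cow 341), 4770 (cow 382), 4419 (cow 330) and 3939 (cow 331), inside the range of the others. The macrophage and monocyte list, with 10 of 14 markers kept and all 10 changes positive (median 0.33, none called), ran from -0.77 to 1.36 postpartum and from -0.65 to 0.49 prepartum. Its highest level was in the postpartum array labelled cow 387, where FABP5 was at 6193. The part of other cell types in the FABP5 values was not tested.

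ACSL1 (Entrez 537161), the main long-chain acyl-CoA synthetase of the fat cell, had the largest change among the kept members. Its signals were 1289, 2031 and 2566 postpartum, against 1861, 2524 and 4739 prepartum. A total of 4 postpartum arrays lay below the lowest prepartum array and none above the highest. It averaged 10.91 ± 0.35 postpartum and 11.39 ± 0.38 prepartum on the log2 scale (SD, n = 11 each). The paired change was -0.48 (SE 0.14, interval -0.78 to -0.17), a signal 1.39-fold lower after calving, and negative in 8 of 11 cows.

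With a limma adjusted p of 0.0786 over all probe sets this difference did not pass, and the exact sign-flip test of ACSL1 alone gave p = 0.0176. The call depended on the cows and the fit. ACSL1 passed without the pair labelled cow 387 (log2 change -0.55, adjusted p = 0.0407), without cows 384 and 387 (-0.53, adjusted p = 0.0405), with cow as a random effect (adjusted p = 0.0407) and with array weights (adjusted p = 0.0460). All probe sets were called at 4.31%, 7.43%, 4.91% and 7.47% in these 4 fits. Leaving out single cows gave changes of -0.55 (without cow 330) to -0.41 (without cow 382).  The most negative log2 changes were those of cow 382 (-1.14, with signals of 1347 postpartum and 2975 prepartum), cow 331 (-0.98), cow 346 (-0.92) and cow 341 (-0.89). Of these, 382, 331 and 341 had raised keratin in their prepartum array. Cow 330, whose prepartum array also had raised keratin, had the most positive change of all (0.30). In the 7 cows without raised keratin the change was -0.36 (SE 0.15, limma adjusted p = 0.440). Cows 382 and 346 had the highest postpartum levels of the lymphocyte list (1.52 and 1.44, with 4 of 6 markers kept), and their erythrocyte level, from 1 kept marker of 4, was 2.24 and 2.5. In the postpartum array of cow 330 the lymphocyte level was 0.62 and the erythrocyte level was 2.07. The part of RNA from skin or blood cells in the ACSL1 values was not tested. In cow 384 the change was -0.73 (2094 postpartum, 3474 prepartum), and the 3 positive changes were those of cows 330 (0.30) and 338 (0.02) and of the pair labelled cow 387 (0.25).

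ACSL3 (Entrez 100138312), an isoform found on lipid droplets and the endoplasmic reticulum, had 3 kept probe sets, numbered by brightness. Probe set 1 had signals of 58.1, 83.9 and 218 postpartum, against 72.6, 117 and 187 prepartum. Its change was -0.26 (SE 0.18, interval -0.63 to 0.12, limma adjusted p = 0.455), negative in 8 of 11 cows. Probe set 2 had a change of -0.12 (SE 0.11, adjusted p = 0.597), negative in 7 cows. Probe set 3 had signals of 53.2, 81.0 and 113 postpartum, against 63.9, 90.5 and 143 prepartum, and a change of -0.28 (SE 0.13, interval -0.56 to 0.00, adjusted p = 0.253), negative in 9 cows.

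Single cows moved these changes: probe set 1 ran from -0.36 (without cow 338) to -0.15 (without cow 382, or cow 341), probe set 2 from -0.18 (without cow 384) to -0.063 (without cow 341) and probe set 3 from -0.36 (without cow 338) to -0.21 (without cow 382). The postpartum array of cow 384, with the highest muscle markers, gave the highest postpartum signal of probe sets 1 and 2 (218 and 175) but 83.0 on probe set 3. The prepartum array of cow 341, with the highest epidermis level, gave the highest prepartum signal on all 3 probe sets (187, 135 and 143). Of the other prepartum arrays with raised keratin, that of cow 331 had 175, 123 and 132 and that of cow 382 had 156, 128 and 135. That of cow 330 had 78.0, 78.5 and 63.9, the last being the lowest prepartum signal of probe set 3. In the 7 cows without raised keratin the changes of probe sets 1, 2 and 3 were -0.019, 0.016 and -0.24 (adjusted p = 0.977, 0.971 and 0.623), and that of probe set 2 had turned its sign. Here too the part of skin RNA was not tested, nor was that of muscle RNA.

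**Figure D2:**
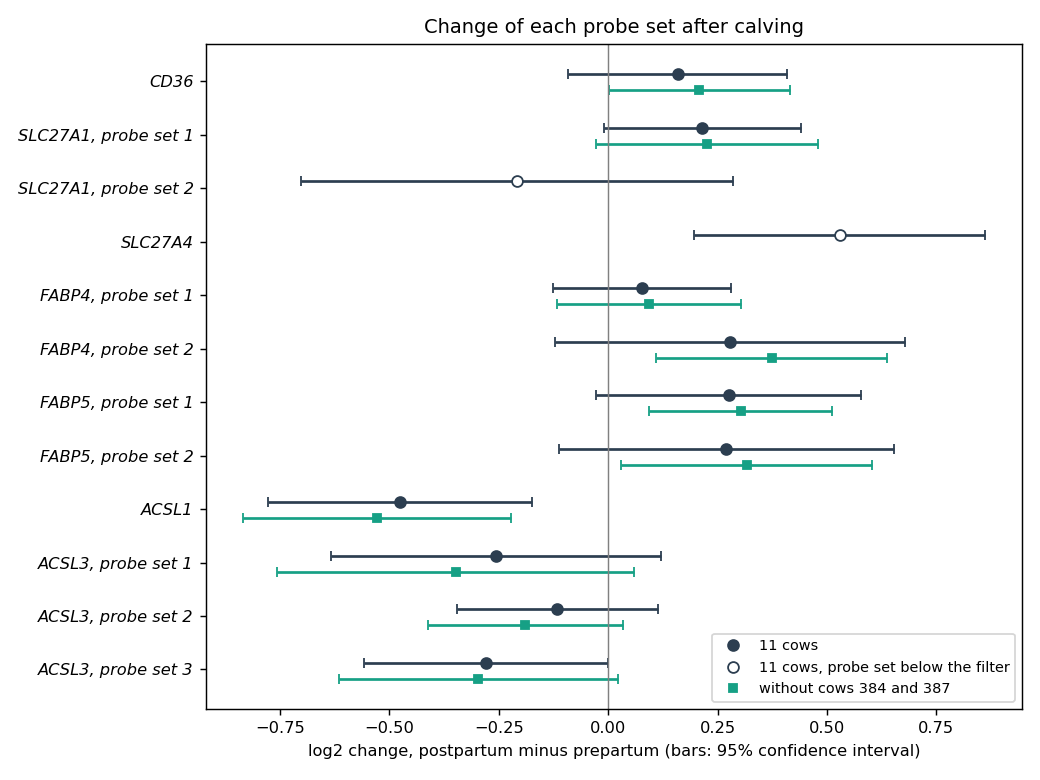
Log2 change of each probe set, postpartum minus prepartum, with its 95% confidence interval, from limma's paired fit over 11 cows (circles, open for the 2 probe sets with a mean below the filter) and without cows 384 and 387 (squares). ACSL1 lies at -0.48 and -0.53, ACSL3 below 0 and CD36, FABP4 and FABP5 above 0, with most intervals over 11 cows reaching across 0.

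The probe sets of 1 gene did not always move together from cow to cow. Within-cow changes were correlated over 11 cows for 21 pairs, 6 of probe sets of the same gene and 15 of different genes, with 100000 permutations and Benjamini-Hochberg adjustment over the 21. The FABP5 probe sets moved together (Pearson r = 0.91, permutation p = 0.0002, adjusted p = 0.00189; Spearman rho = 0.80, permutation p = 0.00479, adjusted p = 0.0251), with r = 0.74 when the 2 extreme cows, 384 and 387, were left out. ACSL3 probe sets 1 and 2 also did (r = 0.91, permutation p = 0.00027, adjusted p = 0.00189; rho = 0.86, permutation p = 0.00105, adjusted p = 0.0169), with r = 0.78 without cows 341 and 382. So did 1 and 3 (r = 0.83, permutation p = 0.00193, adjusted p = 0.0101; rho = 0.85, permutation p = 0.00161, adjusted p = 0.0169; r = 0.88 without cows 341 and 382). ACSL3 probe sets 2 and 3 did not pass the adjustment (r = 0.61, permutation p = 0.0428, adjusted p = 0.114; rho = 0.68, permutation p = 0.0247, adjusted p = 0.0864; r = 0.79 without cows 341 and 384). The FABP4 probe sets gave r = 0.43 (permutation p = 0.193, adjusted p = 0.311; rho = 0.32, permutation p = 0.342, adjusted p = 0.552; r = 0.30 without cows 341 and 386), and those of SLC27A1 r = -0.05 (permutation p = 0.890, adjusted p = 0.935; rho = -0.07, permutation p = 0.840, adjusted p = 0.929; r = 0.35 without cows 338 and 386). Within array set 2 alone (6 cows) these 6 pairs had r = 0.96, 0.95, 0.87, 0.71, 0.33 and 0.69 in this order. For array set 1, with 5 cows, no r was computed.

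Between genes, the changes of CD36 and FABP5 moved together (r = 0.92, permutation p = 0.00016, adjusted p = 0.00189; rho = 0.82, permutation p = 0.00319, adjusted p = 0.0223). The relation held at r = 0.80 without the 2 extreme cows, 384 and 386, at 0.86 over 9 cows without 384 and 387, and at 0.96 within array set 2. Cow 384 had the lowest change of both genes (-0.71 for CD36, -0.82 for FABP5), while cow 386 (0.74 and 0.89), cow 341 (0.58 and 0.65) and the pair labelled cow 387 (0.58 and 1.12) had the highest. It was the single pair of different genes with an adjusted p under 0.05. The changes of ACSL1 and ACSL3 had r = 0.62 (permutation p = 0.0433, adjusted p = 0.114; rho = 0.70, permutation p = 0.0205, adjusted p = 0.0860), with r = 0.73 without cows 330 and 387 and 0.61 within array set 2, which did not pass the adjustment.

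**Figure D3:**
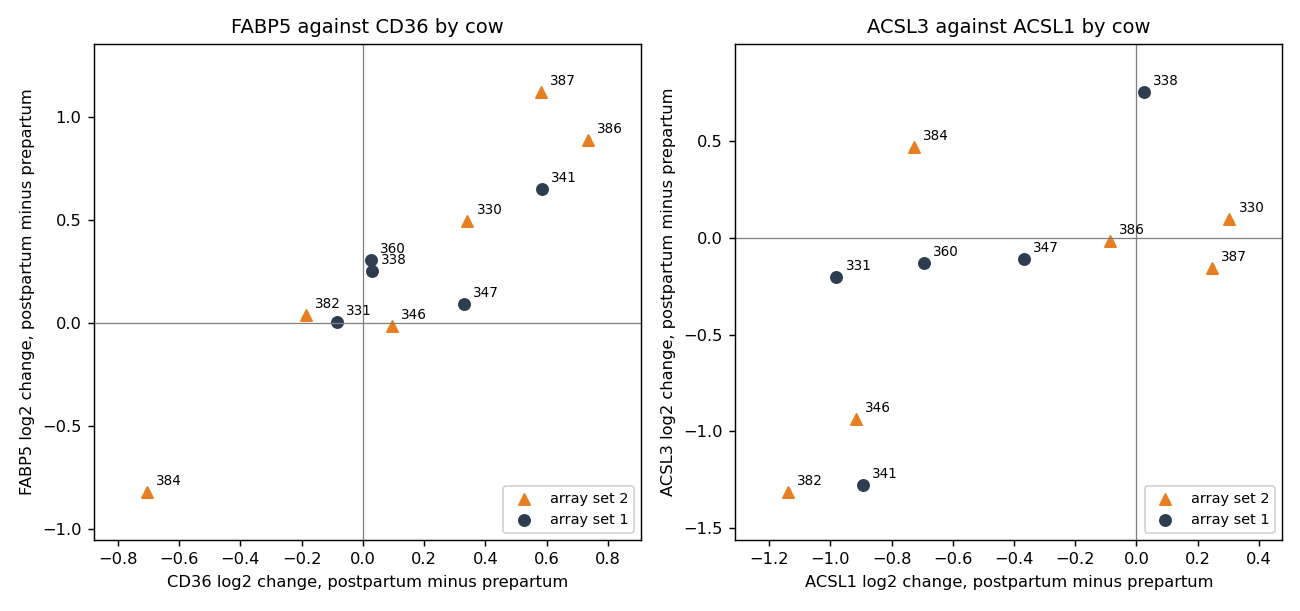
Within-cow log2 changes, postpartum minus prepartum, of FABP5 against CD36 (left) and of ACSL3 against ACSL1 (right, ACSL3 probe set 1), each point 1 cow with its number, triangles for array set 2 and circles for array set 1. CD36 and FABP5 changes lie near a rising line from cow 384 at -0.71 and -0.82 to cow 386 at 0.74 and 0.89, and 8 of the 11 cows lie to the left of 0 for ACSL1.

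Over 11 cows the postpartum and prepartum levels were compared for the 12 probe sets. The kept SLC27A1 probe set had r = 0.79 (permutation p = 0.00275, adjusted p = 0.0330) and rho = 0.74 (permutation p = 0.0122, adjusted p = 0.147), with r = 0.66 without cows 384 and 387 and 0.67 within array set 2. Its signals were 27.7 to 58.1 postpartum and 17.7 to 48.7 prepartum in array set 2. In array set 1 they were 18.5 to 30.0 and 16.3 to 22.6. Both arrays of a cow share an array set, and the part of the sets in the r over 11 cows was not tested. No other of the 12 had an adjusted p under 0.05, and by rank none had, with relations of either sign. SLC27A4 had r = 0.65 (permutation p = 0.0293, adjusted p = 0.176; rho = 0.55, permutation p = 0.0892, adjusted p = 0.357), and r = 0.41 without cows 341 and 360. CD36 had r = -0.42 (permutation p = 0.202, adjusted p = 0.605; rho = -0.65, permutation p = 0.0365, adjusted p = 0.219), and r = -0.43 without cows 386 and 387. Within array set 2 these were 0.33 for SLC27A4 and -0.54 for CD36. For the other 9 probe sets r lay between -0.14 and 0.44.

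The titles end in 1 of 2 codes of unstated meaning that divide the cows into array sets 2 and 1, each holding both arrays of its cows. CD36 changes averaged 0.14 ± 0.53 in set 2 (SD, n = 6) and 0.18 ± 0.28 in set 1 (SD, n = 5), and ACSL1 changes -0.39 ± 0.62 and -0.58 ± 0.41. FABP5 averaged 0.29 ± 0.70 and 0.26 ± 0.25 on its first probe set. No member passed limma's interaction test of set 2 against set 1, which called 0% of all probe sets, and none had an unadjusted p under 0.05, against 3.58% of all. The lowest adjusted p of a member was 0.997. The difference for ACSL1 was 0.20 (interval -0.43 to 0.82), so the arrays leave room for a difference of either sign.

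The 3 genes whose levels over the 22 arrays were most like each member were found by Spearman's rho, as a description of arrays that share cows and array sets. For CD36 they were BTG3 (rho = 0.84), BCL2L2 (0.78) and KLHL25 (0.77). For the kept SLC27A1 probe set they were MVK (0.87), FAM78A (0.85) and MRPL9 (0.84). FABP4, by its brighter probe set, was most like the ribosomal protein genes RPS13 (0.90), RPL27A (0.89) and RPS3A (0.86). FABP5 was most like SNRPA1 (0.82), B2M (0.79) and LOC788205 (0.78). ACSL1 was most like ADK (0.82), RNFT1 (0.82) and SBDS (0.82), and ACSL3, by probe set 1, like ETFA (0.85), CHGA (0.82) and CDC34 (0.79). Over the 18 arrays without cows 384 and 387 these 18 values were 0.71 to 0.90.

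The steps on either side of the members were read from lists of other genes. Among 33 other genes of uptake, binding and activation 18 were kept, and 2 fell while none rose, against 2.16% of all genes tested that fell and 1.55% that rose (3.71% in all). LPL, the lipase that frees fatty acids from lipoproteins for uptake, had signals of 809, 2080 and 5164 postpartum, against 3433, 4315 and 6014 prepartum. It fell 2.27-fold and was lower in 10 of 11 cows (change -1.18 ± 0.28, estimate ± SE on the log2 scale, adjusted p = 0.0323). ACSS2, which activates acetate in the cytosol, had signals of 133, 385 and 2865 postpartum, against 525, 1709 and 2749 prepartum, and fell 3.19-fold, lower in 9 of 11 cows (change -1.67 ± 0.38, adjusted p = 0.0288). The median change of the 18 was -0.08, against 0.01 over all genes. Both lost the call without any one of cows 330, 341, 346, 360 and 382, with LPL at adjusted p = 0.0544 to 0.0779 and ACSS2 at 0.0591 to 0.0711.

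Of 12 first users of acyl-CoA 8 were kept, and 2 fell while none rose, against the same 2.16% of all genes, with a median change of 0.07. AGPAT2, which adds the second acyl chain in triglyceride synthesis, fell 1.86-fold, lower in 10 of 11 cows (change -0.89 ± 0.17, adjusted p = 0.0131), with a median signal of 230 postpartum and 529 prepartum. GPAM, which adds the first, fell 2.59-fold, lower in 9 of 11 cows (change -1.37 ± 0.35, adjusted p = 0.0476), with medians of 458 postpartum and 1505 prepartum. GPAM kept the call in 12 of 27 alternatives and lost it without any one of cows 330, 341, 346, 347, 360, 382, 384 and 386 (adjusted p = 0.0533 to 0.105). Of the 5 kept acyl-CoA thioesterases (of 10), which free fatty acids from coenzyme A, none was called (median change -0.03). The largest changes there were 0.36 for ACOT13 (adjusted p = 0.302) and -0.23 for THEM4 (adjusted p = 0.321), and without cow 384 that of ACOT13 was 0.17 (adjusted p = 0.363).

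PPAR receptors and targets were read as a list because several members are PPARG targets. The list was a choice of 20 genes that held neither the members nor LPL, which fell and was read in another list. Of these 20 genes 15 were kept, and 3 rose while none fell, against 1.55% of all genes that rose, with a median change of -0.0038. Of the 15 changes 7 were positive and 8 negative, the lowest being that of AQP7 (-0.69, limma adjusted p = 0.0597). ANGPTL4, a secreted inhibitor of LPL, had signals of 267, 488 and 691 postpartum, against 165, 267 and 395 prepartum, and rose 1.67-fold, higher in 10 of 11 cows (change 0.74 ± 0.13, adjusted p = 0.00805). PDK4, an inhibitor of the pyruvate dehydrogenase complex, rose 1.68-fold, higher in 10 of 11 cows (change 0.74 ± 0.16, adjusted p = 0.0205). ACADVL, an enzyme of the first step of long-chain fatty acid oxidation in mitochondria, rose 1.58-fold, higher in 11 of 11 cows (change 0.66 ± 0.15, adjusted p = 0.0286). PPARG itself had a change of -0.25 (interval -0.68 to 0.17, adjusted p = 0.519). PDK4 lost the call without cow 330 or 346 (adjusted p = 0.0513 and 0.0523), and ACADVL without any one of cows 330, 341, 346, 347, 360, 382 and 386 (adjusted p = 0.0521 to 0.0584). In the 7 cows without raised keratin 6 probe sets were called in all. No test set the changes of these list genes against those of the members or of each other.

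**Figure D4:**
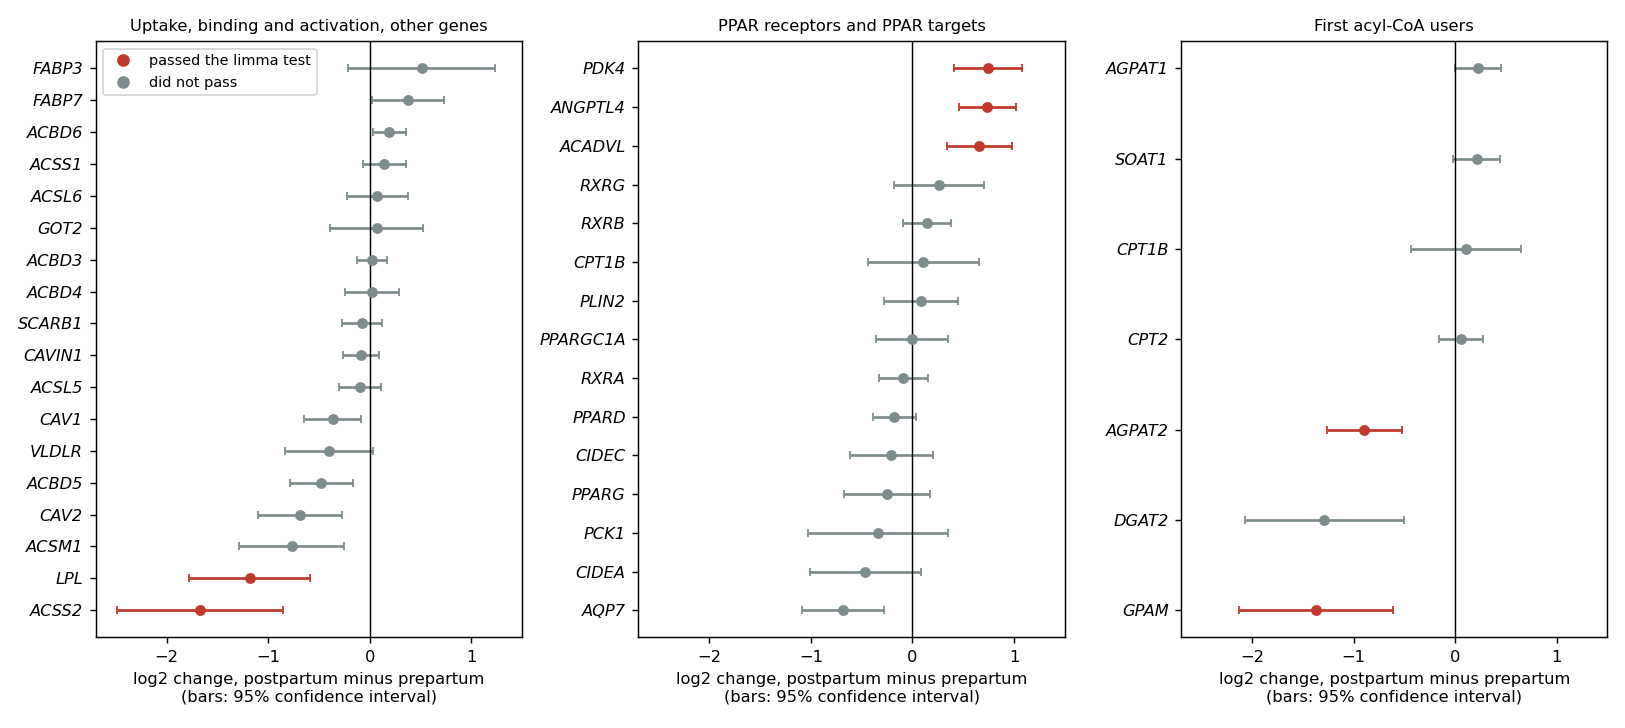
Log2 change, postpartum minus prepartum, with its 95% confidence interval over 11 cows, of the kept genes in 3 lists around the members (7 of the 8 kept first acyl-CoA users are drawn). Red points passed limma's test over all probe sets: LPL, ACSS2, AGPAT2 and GPAM below 0, and ANGPTL4, PDK4 and ACADVL above 0.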

How the data were processed

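Total RNA of 22 samples was hybridised to Affymetrix bovine arrays and summarised by the authors with MAS5, according to the submitters' processing notes. For MAS5 the sources used here give neither version nor settings, and no genome build is named. As deposited, the values were intensities on a linear scale that the authors had brought to equal trimmed means (2% of values removed at each end). Arrays carry no depth of reads, and their number limits how precise a value is. The 112 control probe sets were left out. Of the symbols, 13263 were updated through Entrez identifiers and 2 through accessions in a RefSeq gene table of ARS-UCD2.0, and 27 were kept as annotated. A total of 86 probe sets had several symbols and 10638 had none, and these were tested but not named. Coordinates were used only for the gene order around FABP5 and FABP4.

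A pseudocount of 7.78, the arrays' median 20th percentile, was added before taking log2. Folds refer to this log2 scale and understate changes of dim genes. Probe sets with a mean at or above the 40th percentile were kept (14410), and a gene was represented by its brightest kept probe set (6984 genes). Changes were tested with limma 3.58.1 in R 4.3.3 (intensity trend, cow as a fixed block, Benjamini-Hochberg over all kept probe sets, threshold 0.05). All adjusted p-values of changes come from limma unless another test is named. The cow numbers in the titles pair the arrays, since the series design describes paired sampling. The 2 probe sets below the filter were fitted with all 24016. Single members were also given a two-sided exact sign-flip test over 2048 sign patterns, whose smallest p is 0.000977. The fits were tested on simulated data.

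Named genes were all members, called genes of each list (otherwise the 2 largest changes) and the 3 genes most like each member. PPARG, AQP7 and FABP3 and the fits of dim probe sets were added after the values were seen. The members and lists were chosen with earlier results of these data known. Alternatives varied the block, normalization, pseudocount, filter, trend, weights, threshold, test, array set and cows. Python 3.11.15, scipy 1.17.1 and matplotlib 3.10.9 served for the rest.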

Additional observations from a re-analysis of the deposited data

How the results depend on the processing

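Against 0 member probe sets called, 1 (ACSL1) was called with the replicate block as a random effect, with array weights, at an adjusted p under 0.10 and without cows 384 and 387, and 0 to 1 when single cows were left out (1 without the pair labelled 387). With no replicate block 0 were called, and the block changed no other call of a member. Of 301 values of member probe sets under alternatives, 295 kept their sign and side of the threshold, 5 (all ACSL1) passed it, and 1 turned its sign, ACSL3 probe set 2 without cows 330, 331, 341 and 382 (0.016, limma adjusted p = 0.971). Outside the members, FABP3 turned its sign in array set 1 alone (-0.19). No member was called for a difference between array sets under any alternative run. Against 2 members with an exact sign-flip p under 0.05, there were 4 without cows 384 and 387, 1 without cows 330, 331, 341 and 382, 0 in array set 2 alone and 2 to 6 without single cows (6 without cow 384). Over all probe sets, against 494, the count was 338 with no replicate block, 1076 with array weights, 1048 at an adjusted p under 0.10, 0 with limma within array set 2 (1526 had an unadjusted p under 0.05), 69 within array set 1, 1070 without cows 384 and 387, 6 without cows 330, 331, 341 and 382, 770 with the muscle covariate, 286 with an exact signed-rank test and 242 (without cow 382) to 969 (without cow 384) without single cows, also 280 without 330, 263 without 341, 247 without 346, 314 without 347 and 265 without 360. The cause was not tested. Of the 3 genes most like each member, the number in common was 1 for CD36, SLC27A1, FABP5 and ACSL1 by Pearson's r, and without cows 384 and 387 it was 1 for SLC27A1 and ACSL1 and 0 for ACSL3. Signals near the pseudocount limit what SLC27A4 and the second SLC27A1 probe set can show.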

Other observations

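FABP3, the fatty acid binding protein of heart and skeletal muscle, was named after its values were seen. Its signal was 704 in the postpartum array of cow 384, where FABP5 and the second FABP4 probe set were at their lowest postpartum. The arrays labelled cow 387 stood at 124 postpartum and 124 prepartum, although the muscle list level was -0.21 in the postpartum and 7.21 in the prepartum one. The prepartum array of cow 384 (muscle level 2.63) had 29.7 and the postpartum array of cow 386 (muscle level 3.64) had 22.2. In the other 9 cows FABP3 ran from 20.4 to 48.9 postpartum and from 15.2 to 54.6 prepartum. Over all 11 cows its change was 0.51 (SE 0.34, limma adjusted p = 0.437), positive in 6, and without cow 384 it was 0.14 (adjusted p = 0.627).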
